A study of Mus musculus with 20 samples.

Results

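Interferon-inducible GTPases of the guanylate-binding protein (GBP) and immunity-related GTPase (IRG) families were followed in mouse liver by 10 genes, 7 GBPs (Gbp2, Gbp2b, Gbp3, Gbp5, Gbp6, Gbp7 and Gbp9) and 3 IRGs (Igtp, Irgm1 and Iigp1), out of 48440 genes in the count table. The genes were chosen by family and name, with earlier results of these same livers known: the change of GBP genes with CORT and with the antibody under CORT had been seen. The levels and fold changes of the 10 genes below are therefore a description, and no p is given for any single one. Where 0 members were called in the fit of all livers, the number at an unadjusted p under 0.05 is given beside the share of all genes at that limit. All 10 were in the table under 1 identifier each, and all 10 passed edgeR's filter on low counts, as did 16071 genes in all.

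GBPs are large GTPases that assemble into coats on bacteria and on the vacuoles in which intracellular pathogens live, and they promote inflammasome activation. IRGs are smaller GTPases of the same defence. Iigp1 belongs to the effector IRGs that load onto pathogen vacuoles, whereas Irgm1 and Igtp (also called Irgm3) are regulatory IRGs that sit on the membranes of the cell's own organelles and hold the effectors inactive there. Interferon-gamma, which reaches its target cells through the receptor chains Ifngr1 and Ifngr2 and the kinases Jak1 and Jak2, induces both families by way of transcription factors such as Irf1, and glucocorticoids are known to dampen interferon responses.

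The livers came from female wild-type C57BL/6 mice (C57BL/6J in the methods) that were 8 weeks old at the start. For 5 weeks the mice drank corticosterone (CORT), the main glucocorticoid of rodents, at 100 μg per ml, or its ethanol vehicle, and received 5 mg per kg of a monoclonal antibody that neutralizes acyl-CoA-binding protein (αACBP) or of an IgG2a isotype control by repeated intraperitoneal injection. The 4 groups hold 5 livers each: vehicle with isotype antibody (Isotype + Vehicle), CORT with isotype antibody (Isotype + CORT), vehicle with the neutralizing antibody (αACBP + Vehicle), and CORT with the neutralizing antibody (αACBP + CORT). No mouse went without an antibody injection, and RNA was taken from whole liver, so that a lower level of a transcript in fewer cells and less of it per cell cannot be told apart.

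Library depth was 14934926 to 20299999 read pairs on genes per liver. Levels are given in CPM (counts scaled to a common library size, normalized for library composition by TMM). Before TMM normalization, 3 counts, the limit that a count of 0 allows, are at most 0.201 CPM. Floors of this kind cover counting error only. Hepatocyte markers (Alb, Apoa1, Ttr, Serpina1a, Cyp2e1 and Cps1) summed to 38256 to 138109 CPM over the 20 livers, and livers of the same group had correlations of 0.928 to 0.979.

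The Gbp2, Gbp2b, Gbp3, Gbp5 and Gbp7 genes form a cluster on the plus strand of chromosome 3 (GRCm39, GENCODE M39), from the start of Gbp5 at 142199739 to the end of Gbp2 at 142343779. Gbp6 (chr5:105418568-105443751) and Gbp9 (chr5:105224332-105287452) lie on the minus strand of chromosome 5 among other Gbp genes. Igtp (chr11:58089840-58098417, plus strand) and Irgm1 (chr11:48752795-48763164, minus strand) are on chromosome 11, and Iigp1 is on chromosome 18. All 10 are annotated as protein coding. The members differ in how alike they are. The longest coding sequences of Gbp6 and Gbp9 were identical at 87.1% of alignment columns, those of Gbp2 and Gbp2b at 82.5%, and those of Gbp3 and Gbp7 at 76.7%. Likeness did not follow position throughout: within the chromosome 3 cluster, Gbp2 and Gbp7 were identical at 59.5% and Gbp2 and Gbp3 at 61.4%, whereas Gbp7 and Gbp9, on different chromosomes, were at 72.0%.

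Such likeness bears on which counts can be assigned to 1 gene. Of all 100-base words in the transcripts of Gbp6, 53.6% also occurred in other genes, mostly in Gm43302 and Gbp10, and 25.4% of Gbp6 exon bases lay in exons of Gm43302 on the same strand, so that counts of Gbp6 are uncertain. The share was 11.9% for Gbp7, 6.40% for Gbp5, 3.06% for Igtp, 2.64% for Irgm1, 2.57% for Gbp9 and 0.466% for Gbp3. Gbp2, Gbp2b and Iigp1 shared 0% of such words with other genes.

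Interferon-regulated genes carry 2 kinds of short element near their start sites, the gamma-activated site (GAS) and the interferon-stimulated response element (ISRE), which binds interferon regulatory factors. The promoters of Gbp2b, Gbp3 and Gbp7, the members that passed the fold and adjusted p limits used below for CORT, are printed from 250 bases upstream to the start site (RefSeq, GRCm38.p6, plus strand), at chr3:142594597-142594846, chr3:142559794-142560043 and chr3:142530086-142530335. Capitals mark matches to GAS (TTCNNNGAA) or to the core of the ISRE (GAAANNGAAA), on either strand.
Gbp2b: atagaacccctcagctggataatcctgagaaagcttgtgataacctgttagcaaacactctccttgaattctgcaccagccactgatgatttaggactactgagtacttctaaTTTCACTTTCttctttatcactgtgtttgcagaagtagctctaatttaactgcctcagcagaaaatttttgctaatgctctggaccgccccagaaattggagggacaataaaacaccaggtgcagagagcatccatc
Gbp3: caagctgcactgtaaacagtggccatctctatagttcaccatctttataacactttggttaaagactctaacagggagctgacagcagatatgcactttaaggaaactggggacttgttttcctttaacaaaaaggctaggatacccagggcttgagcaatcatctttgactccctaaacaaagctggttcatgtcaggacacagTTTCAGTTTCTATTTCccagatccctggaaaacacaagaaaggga
Gbp7: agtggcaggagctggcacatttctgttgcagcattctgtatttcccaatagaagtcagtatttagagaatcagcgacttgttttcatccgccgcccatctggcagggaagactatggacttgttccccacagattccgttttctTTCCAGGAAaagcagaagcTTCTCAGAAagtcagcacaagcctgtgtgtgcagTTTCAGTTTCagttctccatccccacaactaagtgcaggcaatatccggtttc

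Gbp2b held 1 ISRE core and no GAS, Gbp3 held 2 ISRE cores that overlap, and Gbp7 held 1 ISRE core and 2 GAS matches. The 30 bases around the ISRE core nearest the start site are shown for the 4 other members whose promoter was at hand, to set the cores side by side, with the core in capitals: Gbp2 (chr3:142620594-142620623, plus strand), Gbp5 (chr3:142496759-142496788, plus strand), Igtp (chr11:58199512-58199541, plus strand) and Irgm1 (chr11:48871425-48871454, minus strand), all in GRCm38.p6.
Gbp2: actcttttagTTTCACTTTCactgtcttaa
Gbp5: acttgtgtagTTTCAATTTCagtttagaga
Igtp: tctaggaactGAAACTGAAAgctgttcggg
Irgm1: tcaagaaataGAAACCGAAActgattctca

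Promoters of 7 of the 10 members were matched, and the other members are Gbp6, Gbp9 and Iigp1. Each of these 7 genes had at least 1 ISRE core within 300 bases (250 before to 50 after a start site), against 3.99% of 27025 mouse genes. A gene was counted if any of its listed promoters held a match. A second promoter listed for Gbp3 had none. GAS matches were found in 3 of the 7 (Gbp5, Gbp7 and Igtp), against 9.55% of all genes with a promoter. The glucocorticoid response element in the form AGAACANNNTGTTC was in 0 of the 7 and in 0.0518% of all genes with a promoter. These are matches of letters in a fixed window, and binding was not measured.

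**Figure D1:**
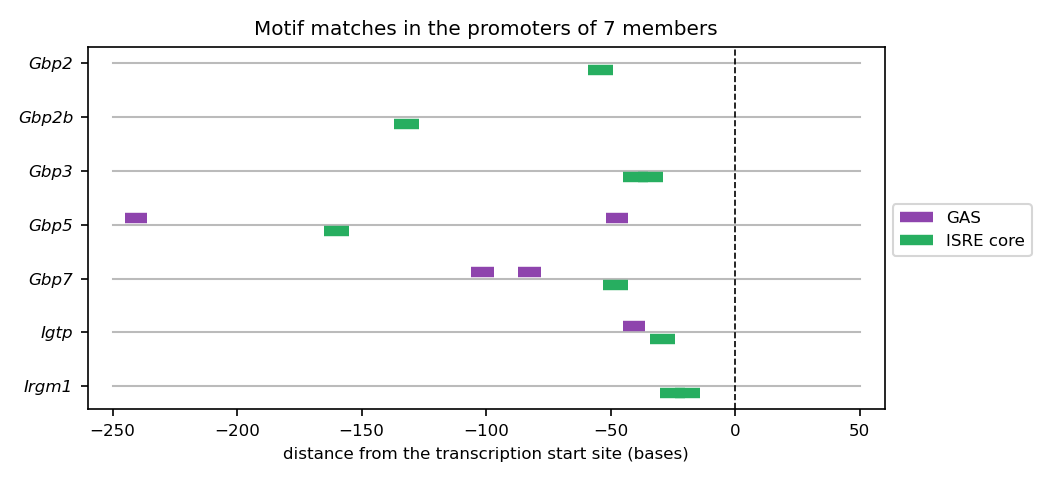
Matches to GAS (purple) and to the ISRE core (green) in the promoters of 7 members, by distance in bases from the transcription start site (dashed line). The ISRE cores of Gbp2, Gbp3, Gbp7, Igtp and Irgm1 begin between 59 and 24 bases upstream of it, and those of Gbp2b and Gbp5 begin 137 and 165 bases upstream.

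Per kilobase of exon, the IRGs were the most abundant members. In the Isotype + Vehicle group, Iigp1 was at 48.0 ± 3.14 CPM per kilobase (SD, n = 5), Igtp at 12.9 ± 1.86, and Irgm1 at 8.53 ± 0.813. The ranges of these 3 genes did not overlap with one another. Gbp3 (6.95 ± 3.07 CPM per kilobase), Gbp7 (4.12 ± 0.406) and Gbp2b (3.10 ± 1.90) followed, each with a range that overlapped with that of its neighbour in this order. Gbp2 (1.99 ± 0.502), Gbp9 (1.26 ± 0.526), Gbp6 (1.15 ± 0.594) and Gbp5 (0.447 ± 0.268) were the lowest. Iigp1, Igtp and Irgm1 kept the first 3 ranks in the Isotype + CORT and αACBP + CORT groups, and in the αACBP + Vehicle group Gbp3 had rank 3 and Irgm1 rank 4, with ranges that overlapped.

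The first comparison asked what CORT did under the isotype antibody. The fitted level of all 10 members was lower in Isotype + CORT than in Isotype + Vehicle livers, with a median log2 fold change of -1.10, against 0.0022 over all genes tested, of which 49.8% were lower. The 7 GBPs had a median of -1.57 and the 3 IRGs of -0.56. By edgeR's quasi-likelihood test with Benjamini-Hochberg adjustment, at an adjusted p of at most 0.05 and a log2 fold change of at least 1 in size, 3 of the 10 members were called lower (Gbp2b, Gbp3 and Gbp7), against 1.43% of all genes tested. With the adjusted p alone, 5 of the 10 passed (these 3, Igtp and Irgm1), against 1.86% of all genes. The livers of both groups did not overlap for 5 members (Gbp2, Gbp2b, Gbp3, Gbp7 and Irgm1), against 3.02% of all genes. As the members were named with this contrast known, nothing further is read from these counts.

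Gbp2b, the mouse gene formerly called Gbp1, showed the largest difference of the 10. Its levels in the Isotype + Vehicle livers were 6.75, 12.7, 5.38, 15.97 and 3.06 CPM in replicates 1 to 5. The Isotype + CORT livers had 0.957, 1.151, 2.19, 0.456 and 0 CPM, and the count of 0 allows up to 0.170 CPM before TMM normalization. Every Isotype + CORT liver thus lay below every Isotype + Vehicle liver, and the fitted level was 9.03-fold lower (log2 fold change -3.17 ± 0.62, SE). Levels in the αACBP + Vehicle livers were 5.97, 6.32, 17.02, 3.69 and 3.72 CPM, and those in the αACBP + CORT livers were 5.24, 4.64, 6.14, 5.20 and 9.02 CPM. The αACBP + CORT livers lay within the range of both vehicle groups.

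Gbp3 was measured at 17.6, 21.3, 35.9, 49.3 and 23.4 CPM in the Isotype + Vehicle livers. In the Isotype + CORT livers it was at 3.62, 8.06, 16.02, 4.24 and 3.93 CPM, which is 4.09-fold lower (log2 fold change -2.03 ± 0.42), with replicate 3 well above the other 4. The αACBP + Vehicle livers (18.9, 27.1, 37.1, 31.2 and 38.9 CPM) and the αACBP + CORT livers (18.1, 12.0, 30.1, 16.3 and 42.0 CPM) overlapped with each other, and 1 αACBP + CORT liver lay below the highest Isotype + CORT liver.

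Gbp7 varied little between Isotype + Vehicle livers, at 22.1, 24.2, 28.6, 25.0 and 23.4 CPM. Its levels were 6.02, 11.5, 16.8, 5.93 and 11.9 CPM in the Isotype + CORT livers, a 2.36-fold lower level (log2 fold change -1.24 ± 0.30) with no overlap between both groups. The αACBP + Vehicle livers had 8.66, 22.6, 24.2, 27.03 and 26.5 CPM, replicate 1 standing apart at the low end. In the αACBP + CORT livers, at 19.1, 13.6, 29.6, 12.2 and 26.5 CPM, the level of 2 livers was within the range of the Isotype + CORT group.

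Gbp2 stood at 4.28, 6.98, 3.76, 5.76 and 4.68 CPM in the Isotype + Vehicle livers and at 0.957, 1.90, 0, 2.15 and 1.74 CPM in the Isotype + CORT livers. Both groups were apart, but the fitted difference had a wide error (log2 fold change -1.91 ± 0.78) and was not called. Gbp2 was also at 0 CPM in 1 αACBP + Vehicle liver, whose group ran to 6.34 CPM, and at 2.07 to 4.50 CPM in the αACBP + CORT livers. The floors behind the 2 counts of 0 are 0.165 and 0.187 CPM before TMM normalization.

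Gbp5, known for promoting NLRP3 inflammasome assembly, had the lowest level per kilobase. It ranged from 1.08 to 6.26 CPM in Isotype + Vehicle livers, from 0 to 3.83 CPM in Isotype + CORT livers, from 1.82 to 3.02 CPM in αACBP + Vehicle livers and from 0.861 to 2.86 CPM in αACBP + CORT livers. A single Isotype + CORT liver, replicate 1, was at 3.83 CPM, and the other 4 were at 0.717 CPM or less.

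Gbp6 and Gbp9, the members on chromosome 5, overlapped between all 4 groups. Gbp6 averaged 7.84 ± 4.04 CPM (SD, n = 5) with vehicle and 4.00 ± 3.10 CPM with CORT under isotype, and 7.13 ± 4.82 CPM with vehicle and 7.33 ± 2.45 CPM with CORT under αACBP. For Gbp9 the means were 12.2 ± 5.08 and 7.33 ± 4.26 CPM under isotype, and 12.2 ± 4.09 and 12.3 ± 4.49 CPM under αACBP, vehicle first. The Isotype + CORT mean was the lowest of the 4 for both genes.

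Irgm1 was the 1 IRG whose isotype groups were apart. The Isotype + Vehicle livers were at 59.98, 55.6, 51.1, 47.0 and 57.4 CPM and the Isotype + CORT livers at 34.5, 35.6, 42.7, 34.7 and 36.1 CPM, with no overlap (log2 fold change -0.56 ± 0.15). The αACBP + CORT livers, at 57.2, 55.7, 53.8, 47.8 and 46.0 CPM, were also all above the Isotype + CORT livers. In the αACBP + Vehicle group the levels were 30.3, 43.3, 39.6, 54.8 and 43.0 CPM, from below the lowest Isotype + CORT liver to within the Isotype + Vehicle range.

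Igtp was at 53.9, 62.3, 48.7, 57.1 and 70.9 CPM in the Isotype + Vehicle livers. Of the Isotype + CORT livers, 4 were at 25.2, 17.9, 27.6 and 21.3 CPM, and replicate 3 was at 66.0 CPM, inside the vehicle range. This liver widened the error of the difference (log2 fold change -0.89 ± 0.24). Igtp was at 38.3 to 58.6 CPM in the αACBP + Vehicle livers and at 40.7 to 60.5 CPM in the αACBP + CORT livers, above the 4 lower Isotype + CORT livers in every case.

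Iigp1, the effector IRG and the most abundant member, differed least. Its mean was 306 ± 19.97 CPM in the Isotype + Vehicle group, 271 ± 104 CPM in the Isotype + CORT group, 286 ± 31.9 CPM in the αACBP + Vehicle group and 308 ± 28.9 CPM in the αACBP + CORT group (n = 5 each). The Isotype + CORT livers were spread from 190 to 441 CPM, both below and above all livers of the other groups, and the log2 fold change with CORT was -0.18 ± 0.18.

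**Figure D2:**
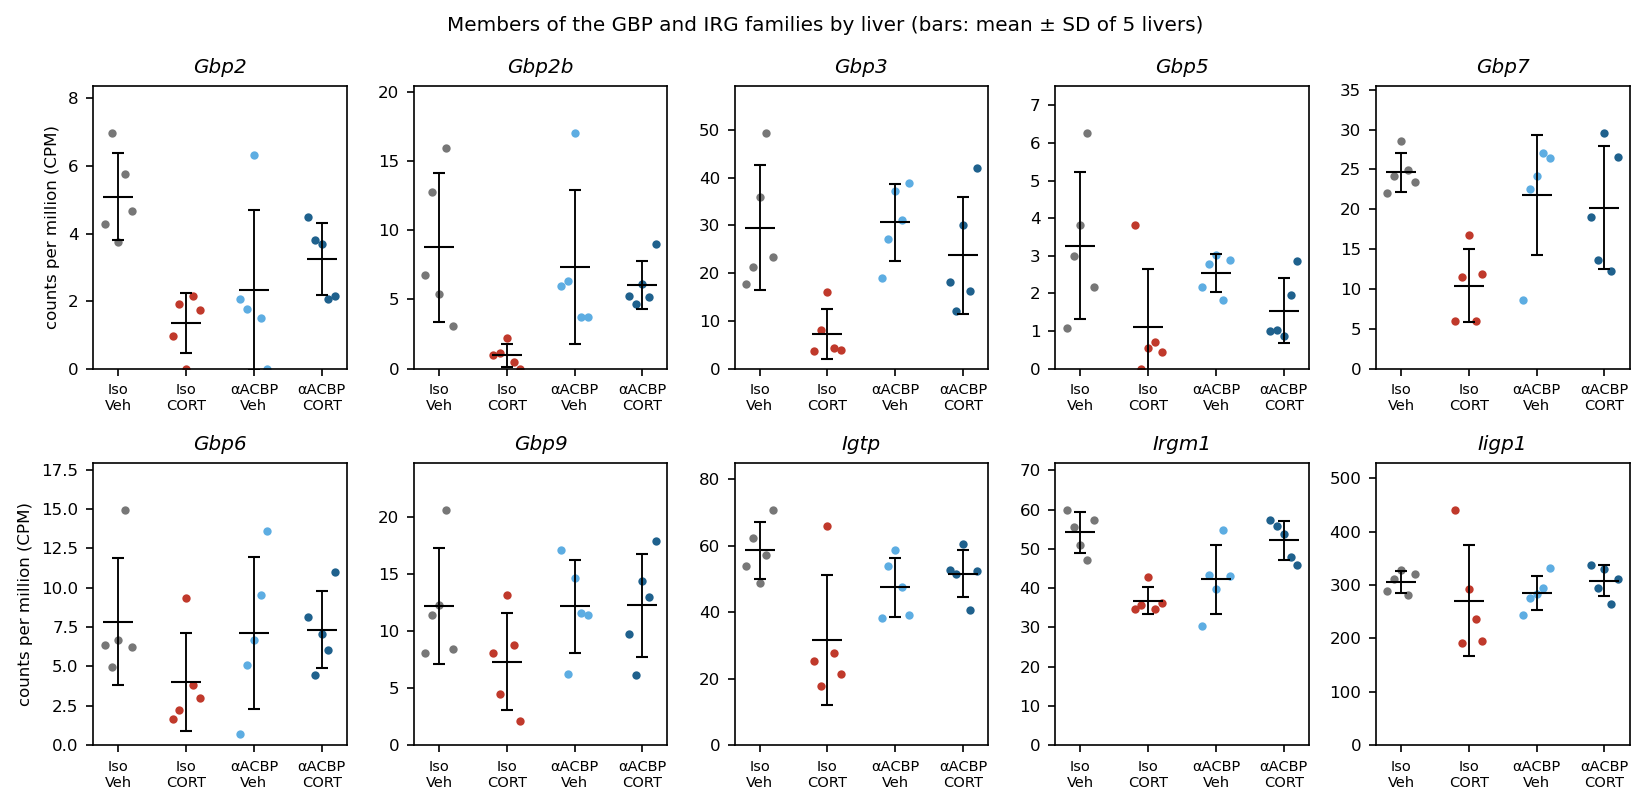
Level of each member in CPM (vertical axes, from 0) in the 20 livers; points are livers, and horizontal marks with error bars are the mean ± SD of 5 livers (Iso, isotype; Veh, vehicle). For Gbp2, Gbp2b, Gbp3, Gbp7 and Irgm1 all Isotype + CORT points lie below all Isotype + Vehicle points, whereas for Igtp 1 Isotype + CORT liver at 66.0 CPM does not.

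The second comparison asked what αACBP did under CORT. It uses the same Isotype + CORT livers as the first, so that a level that happened to be low in them moves both comparisons. The fitted level of all 10 members was higher in αACBP + CORT than in Isotype + CORT livers, with a median log2 fold change of 0.81, against 0.011 over all genes tested. One of the 10 was called higher, Gbp2b, against 0.504% of all genes, with a 6.24-fold higher level (log2 fold change 2.64 ± 0.61). Its lowest αACBP + CORT liver, at 4.64 CPM, was above its highest Isotype + CORT liver, at 2.19 CPM. Non-overlapping groups were found for 2 of the 10, Gbp2b and Irgm1, against 1.91% of all genes. Log2 fold changes were 1.72 ± 0.42 for Gbp3, 1.26 ± 0.77 for Gbp2, 0.95 ± 0.30 for Gbp7, 0.87 ± 0.51 for Gbp6, 0.74 ± 0.37 for Gbp9, 0.70 ± 0.24 for Igtp, 0.50 ± 0.15 for Irgm1, 0.49 ± 0.78 for Gbp5 and 0.18 ± 0.18 for Iigp1. The call of Gbp2b did not hold in every subset of livers: it was lost without Isotype + CORT replicate 1, 2 or 4, or without αACBP + CORT replicate 3, 4 or 5, each alone, and its log2 fold change then lay between 2.45 and 2.71. Without Isotype + Vehicle replicate 4 or αACBP + CORT replicate 2, Gbp3 was called as well. In a fit of only both groups compared, 0 members were called. Shares of all genes were not computed for these subsets or for this fit, so that calls lost or gained in them are not read as results about the members.

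The Isotype + CORT livers were not alike, and replicate 3 stood nearest to the vehicle livers for several members. It was the highest of its group for Gbp2b, Gbp3, Gbp6, Gbp7, Gbp9, Igtp and Irgm1, and the lowest for Gbp2. In the same liver the 16 type I interferon genes listed below summed to 247 CPM and the 8 Kupffer cell and macrophage markers to 361 CPM, against 84.1 to 131 CPM and 122 to 247 CPM in the other 4 livers of the group. Without it, 4 members were called lower with CORT (Gbp2b, Gbp3, Gbp7 and Igtp), against 1.93% of all genes, and 4 were called higher with αACBP under CORT (the same 4 genes), against 0.917% of all genes. Replicate 1 of the group was the highest for Gbp5 and Iigp1, and without it Gbp5 was called lower with CORT (log2 fold change -2.94 ± 0.80). Gbp7 was no longer called lower without Isotype + CORT replicate 1 or 4, with log2 fold changes of -1.11 and -1.10.

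**Figure D3:**
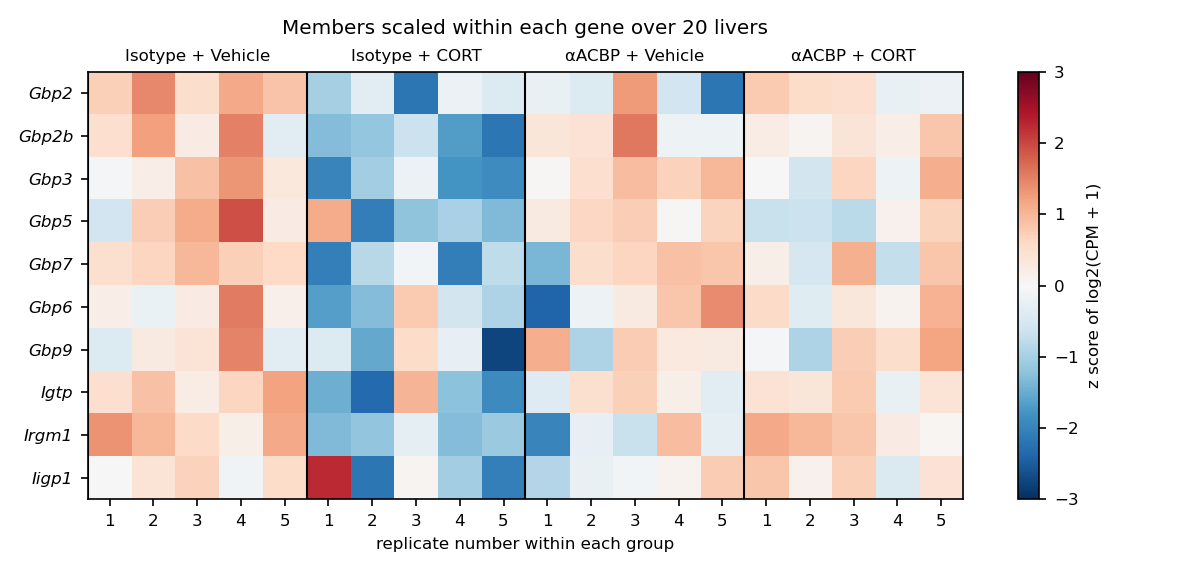
Level of each member in each liver as a z score of log2(CPM + 1) over the 20 livers (red, above the gene's mean; blue, below it), with livers in columns by group and replicate number. The Isotype + CORT columns are mostly blue, except for replicate 3, at 66.0 CPM for Igtp and 9.35 CPM for Gbp6, and replicate 1 for Gbp5 and Iigp1.

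The remaining comparisons asked whether CORT changed these genes under αACBP and whether αACBP changed them without CORT. In αACBP + CORT against αACBP + Vehicle livers, 0 of 10 members were called by edgeR, 0 reached an unadjusted p under 0.05 (12.7% of all genes did) and 0 were called by DESeq2's Wald test (0.697% of all genes were). By edgeR 0.212% of all genes were called in either direction, and the members' median log2 fold change was 0.024, with values from -0.71 (Gbp5) to 0.48 (Gbp2). In αACBP + Vehicle against Isotype + Vehicle livers, 8 of 10 members had a lower fitted level, with a median of -0.22 and values from -1.13 (Gbp2) to 0.05 (Gbp3). None was called by edgeR or by DESeq2, against 1.3% and 1.77% of all genes, and 1 reached an unadjusted p under 0.05, against 20.6% of all genes. Set against Isotype + Vehicle, the αACBP + CORT livers had a median of -0.24 over the members, from -1.07 (Gbp5) to 0.012 (Gbp9), with 0 members called by either tool and 0 at an unadjusted p under 0.05. Of all genes, 0.0684% were called by edgeR, 0.373% by DESeq2, and 7.59% had such a p.

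Whether CORT acted differently under both antibodies was asked by the interaction of both treatments. Its log2 value was above 0 for all 10 members, with a median of 1.01 against 0.033 over all genes. The values were 2.90 ± 0.81 for Gbp2b, 2.39 ± 1.08 for Gbp2, 1.66 ± 0.58 for Gbp3, 1.13 ± 0.42 for Gbp7, 1.01 ± 0.34 for Igtp, 0.86 ± 0.21 for Irgm1 and 0.28 ± 0.26 for Iigp1. By edgeR 0 members were called, against 0.143% of all genes. An unadjusted p under 0.05 was found for 6 members, against 10.6% of all genes, and DESeq2 called 1 (Gbp2b), against 1.17% of all genes. As the members were named with both contrasts of the Isotype + CORT livers known, nothing further is read from these counts either. Without Isotype + CORT replicate 3, edgeR called 2 members, Gbp3 and Igtp, against 0.231% of all genes with a higher value.

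**Figure D4:**
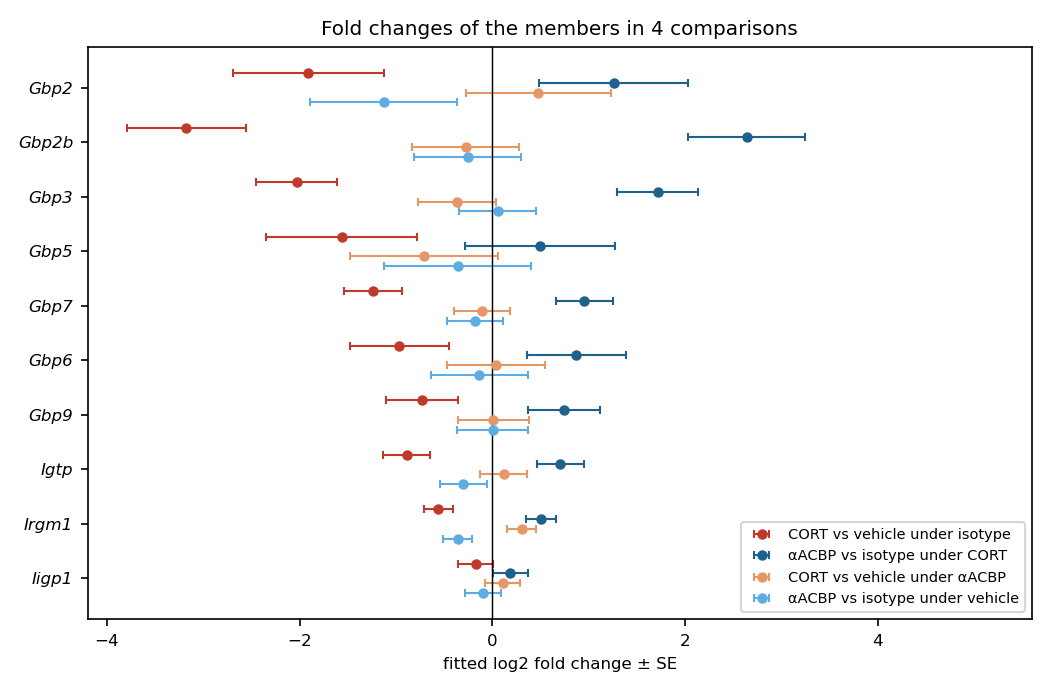
Fitted log2 fold change ± SE of each member for CORT against vehicle under isotype (red) and under αACBP (orange), and for αACBP against isotype under CORT (dark blue) and under vehicle (light blue). All 10 red points lie below 0 and all 10 dark blue points above it, Gbp2b being the farthest out at -3.17 and 2.64; these comparisons share the Isotype + CORT livers.

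Other genes of both families were taken from a list written with the same earlier results known. Of 20 found in the table, 17 passed the filter. With CORT under isotype, 15 of 17 had a lower fitted level, with a median log2 fold change of -0.87. By edgeR 0 were called, 7 had an unadjusted p under 0.05, and DESeq2 called 0. Of all genes, 15.6% had such a p and DESeq2 called 3.28%. Gbp4 (log2 fold change -0.98 ± 0.24, adjusted p = 0.0186) and Ifi47 (-0.84 ± 0.20, adjusted p = 0.0149) passed the adjusted p alone. Ifi47, an IRG gene also known as Irgd, was at 16.9 to 21.4 CPM in Isotype + Vehicle livers and at 7.93 to 15.1 CPM in Isotype + CORT livers, with no overlap. Values for Gbp8 (-1.61 ± 0.56), Gbp10 (-1.55 ± 0.67), Gbp11 (-0.87 ± 0.43) and Irgm2 (-0.50 ± 0.24) did not pass. Without Isotype + CORT replicate 3, 6 of the list were called, and 1 was called without Isotype + Vehicle replicate 1 or 5, Isotype + CORT replicate 1, 2 or 5, or αACBP + Vehicle replicate 5.

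Tgtp1 (-2.20 ± 1.37), Tgtp2 (-0.74 ± 0.57), Gm12250 (-0.24 ± 1.29), Gm4951 (-0.08 ± 0.45), 9930111J21Rik2 (-1.80 ± 1.39) and Gm5431 (-0.34 ± 1.45) had lower fitted levels with CORT under isotype. So had Gvin1 (-2.31 ± 1.69), Gm1966 (-1.72 ± 1.79) and Gm8995 (-0.94 ± 0.38) of the very large GTPase family. Errors often exceeded the value. Gm12250, Gm1966 and Gm8995 are annotated as transcribed pseudogenes in GENCODE M39. Shared 100-base words made up 97.8% for Gvin1, 74.7% for Tgtp1, 76.8% for Tgtp2, 47.1% for 9930111J21Rik2 and 59.6% for Gbp10. Counts of these genes are therefore uncertain. F830016B08Rik (0.65 ± 0.31) and Irgq (0.22 ± 0.28) were the 2 with a higher fitted level. Under CORT, αACBP was accompanied by a higher fitted level for 13 of 17, with a median of 0.84. By edgeR 0 were called, 4 had an unadjusted p under 0.05 and DESeq2 called 0. Of all genes, 12.5% had such a p and DESeq2 called 1.31%. Ifi47 passed the adjusted p alone (0.84 ± 0.20, adjusted p = 0.0339, edgeR), with levels of 14.3 to 22.9 CPM in the αACBP + CORT livers. Without Isotype + CORT replicate 3 or 5, 1 of the list was called. For the interaction 0 of 17 were called by edgeR, 4 had an unadjusted p under 0.05 and DESeq2 called 2. Of all genes, 10.6% had such a p and DESeq2 called 1.17%. One was called by edgeR without Isotype + CORT replicate 3, 4 or 5, αACBP + Vehicle replicate 4 or αACBP + CORT replicate 5. Of the list, 1 gene was called by edgeR in any of the 6 comparisons. F830016B08Rik was higher with αACBP under vehicle (log2 fold change 1.33 ± 0.32, adjusted p = 0.018, edgeR), and its call was lost without Isotype + Vehicle replicate 1 or 5 or αACBP + Vehicle replicate 1 or 5. Without Isotype + Vehicle replicate 4, 2 of the list were called.

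The transcript of interferon-gamma itself was barely measured. Ifng had counts in 2 of 5 Isotype + Vehicle livers (0.428 and 0.599 CPM) and in 1 αACBP + CORT liver (0.202 CPM), and was at 0 in all Isotype + CORT and αACBP + Vehicle livers, so that a change was not detectable at this depth. Of its receptor chains, Ifngr1 had a log2 fold change of -0.81 ± 0.24 with CORT under isotype and of 0.86 ± 0.24 with αACBP under CORT (adjusted p = 0.0645 and 0.0811, edgeR). Ifngr2 had 0.01 ± 0.32 and -0.33 ± 0.32, Jak1 -0.20 ± 0.15 and 0.22 ± 0.15, and Jak2 -0.02 ± 0.27 and -0.13 ± 0.27 in the same comparisons, none with an adjusted p under 0.05.

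Of the transcription factors on the interferon-gamma pathway list, Irf9 passed the adjusted p in both comparisons without reaching the fold limit. Its log2 fold changes were -0.67 ± 0.18 (adjusted p = 0.0333) and 0.85 ± 0.18 (adjusted p = 0.0141, edgeR). Values for CORT and then αACBP were -0.44 ± 0.24 and 0.38 ± 0.24 for Irf1, -0.14 ± 0.20 and 0.48 ± 0.20 for Stat2, -0.93 ± 0.28 and 0.56 ± 0.28 for Irf8, -0.41 ± 0.22 and 0.53 ± 0.22 for Nlrc5, and -2.20 ± 0.86 and 1.14 ± 0.84 for Ciita, none of them past the adjusted p.

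Over the 31 measured genes of the pathway list, 27 had a lower fitted level with CORT under isotype (median -0.48) and 1 was called lower, the immunoproteasome subunit Psmb8 (-1.13 ± 0.22, adjusted p = 0.00385, edgeR). Of all genes, 1.43% were called lower with CORT and 0.504% higher with αACBP under CORT. With αACBP under CORT, 26 were higher (median 0.45) and 3 were called higher: the chemokine Cxcl9 (2.43 ± 0.57, adjusted p = 0.0453), Psmb8 (1.05 ± 0.22, adjusted p = 0.0155) and the peptide transporter Tap1 (1.06 ± 0.20, adjusted p = 0.0072). Cxcl9 was at 0.0501 to 7.05 CPM in Isotype + CORT livers and at 13.02 to 26.8 CPM in αACBP + CORT livers. Without Isotype + CORT replicate 3, 5 of the list were called with CORT, and 2 were called without Isotype + Vehicle replicate 1 or 4 or Isotype + CORT replicate 2 or 4. For αACBP under CORT 0 were called without Isotype + CORT replicate 1 and 1 without αACBP + CORT replicate 3, and 0 were called in a fit of only both groups compared.

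Genes known mainly as targets of type I interferons moved in the same directions. All 16 had a lower fitted level with CORT under isotype (median -1.52), and 9 were called, those with the lowest adjusted p being Ifit3, Irf7, Oas2, Mx2 and Isg15. Of all genes, 1.43% were called lower with CORT and 0.504% higher with αACBP under CORT. Ifit3 fell from 26.9, 26.9, 33.3, 39.9 and 28.2 CPM in the Isotype + Vehicle livers to 7.32, 4.30, 15.8, 6.45 and 4.00 CPM in the Isotype + CORT livers (log2 fold change -2.03 ± 0.32, adjusted p = 0.000722, edgeR). With αACBP under CORT all 16 had a higher fitted level (median 1.24), and 4 rose: Mx1 (2.36 ± 0.43, adjusted p = 0.0066), Oas2 (2.23 ± 0.33, adjusted p = 0.00173), Ifit3 (1.93 ± 0.32, adjusted p = 0.00275) and Irf7 (1.49 ± 0.25, adjusted p = 0.00275). Ifit3 was the one gene of the lists used here to pass for the interaction (2.24 ± 0.44, adjusted p = 0.0312, edgeR). Fewer of the list were called with CORT without Isotype + Vehicle replicate 3 or 4 or Isotype + CORT replicate 2 (5 each) and without Isotype + CORT replicate 4 (4 genes), and 7 were called with αACBP under CORT without Isotype + CORT replicate 3. A fit of only both groups compared called 5 with CORT and 2 with αACBP under CORT.

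Proteins that work with these GTPases, namely the ATG8 conjugation system and inflammasome components, were measured by 16 genes. With CORT under isotype 7 were lower and 9 higher (median 0.08), and with αACBP under CORT 9 were lower and 7 higher (median -0.08). By edgeR and by DESeq2 0 were called in both comparisons, with 4 and 6 genes at an unadjusted p under 0.05. Of all genes, 15.6% and 12.5% had such a p, and DESeq2 called 3.28% and 1.31%. All 6 inflammasome genes had a lower fitted level with CORT under isotype, from -1.34 to -0.15, and 1 of the 6 was lower with αACBP under CORT. The 5 ATG8 genes went the other way. All 5 were higher with CORT under isotype (0.08 to 0.84) and lower with αACBP under CORT (-0.44 to -0.06). Of the 5 conjugation genes, 1 was lower with CORT under isotype and 3 with αACBP under CORT. Without Isotype + CORT replicate 3, 1 of the list was called in each comparison.

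Resident liver macrophages (Kupffer cells) are among the cells that express these GTPases. Their markers changed between groups in the same directions as the members, but not all did so from liver to liver. After subtraction of group means, r with the members' mean z score was 0.73 for Clec4f, 0.53 for Csf1r, 0.43 for Timd4 and 0.40 for Cd5l. It was 0.15 for Vsig4, 0.06 for Adgre1, -0.20 for Marco and -0.34 for Cd68. All 8 Kupffer cell and macrophage markers had a lower fitted level with CORT under isotype, and 5 were called (Clec4f, Vsig4, Cd5l, Timd4 and Csf1r). All 8 were higher with αACBP under CORT, and 2 were called (Clec4f and Csf1r). The shares of all genes called were 1.43% lower with CORT and 0.504% higher with αACBP under CORT. Their summed level was 328 to 637 CPM in Isotype + Vehicle livers, 122 to 361 CPM in Isotype + CORT livers, 453 to 768 CPM in αACBP + Vehicle livers and 441 to 601 CPM in αACBP + CORT livers. The count with CORT was 0 without Isotype + Vehicle replicate 2, 1 without Isotype + Vehicle replicate 5 or Isotype + CORT replicate 1 or 2, 2 without Isotype + Vehicle replicate 4, and 3 without Isotype + CORT replicate 4 or 5. With αACBP under CORT it was 1 without Isotype + CORT replicate 2. A fit of only both groups compared called 1 in each comparison. The part of these markers in the levels of the members was not tested.

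Markers of other leukocytes were scarce. With CORT under isotype, edgeR called 0 of 7 T cell, 0 of 4 NK cell, 0 of 4 B cell and 0 of 5 dendritic cell and neutrophil markers, with 2, 1, 3 and 2 at an unadjusted p under 0.05, and DESeq2 called 1, 0, 0 and 1. Of all genes, 15.6% had such a p and DESeq2 called 3.28%. Their summed levels did not overlap between both isotype groups. T cell markers summed to 6.55 to 9.71 CPM in Isotype + Vehicle and 0.516 to 4.99 CPM in Isotype + CORT livers, NK cell markers to 5.30 to 11.03 and 0.901 to 3.39 CPM, B cell markers to 12.8 to 23.8 and 1.16 to 10.1 CPM, and dendritic cell and neutrophil markers to 5.78 to 12.8 and 1.89 to 4.58 CPM. In αACBP + CORT livers the sums were 2.58 to 7.75, 2.13 to 6.65, 2.64 to 14.8 and 1.89 to 6.82 CPM in the same order. Ncr1, a defining NK cell gene that did not pass the filter on low counts, was at 0 in all Isotype + CORT livers, and at 0 to 1.71 CPM in Isotype + Vehicle, 0 to 0.724 CPM in αACBP + Vehicle and 0 to 0.355 CPM in αACBP + CORT livers. Sinusoidal endothelial markers (210 to 318 and 219 to 248.6 CPM) and stellate cell markers (133 to 210 and 130 to 168 CPM) overlapped between both isotype groups. Their part in the result was likewise not tested.

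**Figure D5:**
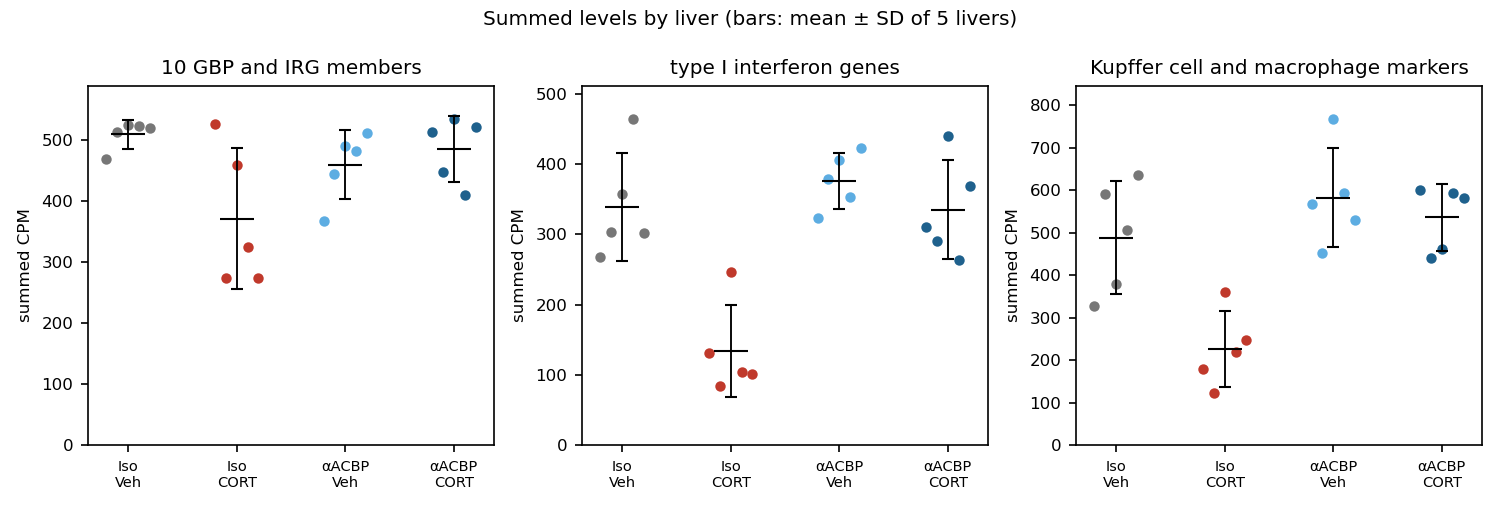
Summed CPM of the 10 members, of 16 type I interferon genes and of 8 Kupffer cell and macrophage markers (vertical axes, from 0) in each liver; points are livers, and horizontal marks with error bars are the mean ± SD of 5 livers (Iso, isotype; Veh, vehicle). The member sum is mostly Iigp1 and ranges from 273 to 526 CPM in the Isotype + CORT group, where replicate 3 is the highest for the interferon genes (247 CPM) and the markers (361 CPM).

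The members varied together to a moderate degree. Over the 20 livers the median Pearson r between 2 members was 0.45 on the scale of log2(CPM + 1), from 0.01 to 0.87 over 45 pairs. After the group means had been subtracted, the median r was 0.18, and 32 of 45 pairs were above 0. These values describe 20 livers that share their libraries' depth and composition, and they carry no p.

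Genes outside both families were ranked by their correlation with the mean z score of the members over the 20 livers. The 10 highest were Ifit3 (r = 0.96), the MHC class II chain H2-Ab1 (0.92), Apol9b (0.91), Oasl2 (0.90), Apol9a (0.90), the inhibitory leukocyte receptor gene Pirb (0.89), the phagosomal metal transporter gene Slc11a1 (0.88), the ISG15 protease gene Usp18 (0.88), the invariant chain gene Cd74 (0.88) and the macrophage pore-forming protein gene Mpeg1 (0.87), against a median r of 0.022 over all genes tested. After subtraction of the group means the 5 highest were Ifit3 (0.87), Rad52 (0.85), Usp18 (0.85), Snhg17 (0.83) and Oasl2 (0.83), against a median of 0.00078. The 95th percentile of r was 0.58 over the 20 livers and 0.50 after subtraction of the group means. These genes were picked as the highest of all genes tested, so that values far above the median follow from the ranking itself. Ranking by Spearman's rho shared 3 of the top 10 (Ifit3, H2-Ab1 and Pirb) with the ranking by r.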

How the data were processed

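Liver RNA of 20 mice was sequenced by the authors, who aligned read pairs with HISAT2 and assigned them with HTSeq-count (union mode, non-unique features included), so that a pair over overlapping genes counts for each. The build is GRCm39 in the methods and mm10 in the submitters' processing notes; annotation release and strand setting are not given in the sources used here. The deposited values are raw counts per gene. Lines that name no gene, among them that for pairs not aligned uniquely (5.92 to 10.6% of pairs), held 59.6 to 63.4% of pairs and were left out of library sizes.

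Counts of 48440 genes were filtered, TMM-normalized and fitted with edgeR 4.0.16 (robust quasi-likelihood, 4 groups in 1 model, Benjamini-Hochberg over 16071 genes, R 4.3.3). CPM are TMM-normalized. A gene was called at an adjusted p of at most 0.05 and a log2 fold change of at least 1 in size. DESeq2 1.42.0, other filters and normalization, group subsets, a replicate block and leaving out each liver were alternatives. The program was tested on simulated data. No 2 livers of a group differed by counting noise alone (at least 12.0 in chi-square per degree of freedom, 40 pairs). Labels give each liver its own number, and p-values measure the spread between mice.

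The members and all gene lists were chosen with earlier results of these data known. Named were all members, other GBP and IRG genes past the filter, the interferon-gamma ligand, receptor chains, kinases and transcription factors (1 gene of this list is not reported here), called genes of the other lists (at most 5 per list and comparison, by adjusted p), and the genes most correlated with the members, without predicted genes and pseudogenes. Exon lengths, positions and shared words of 100 bases are from GENCODE M39; promoters are from RefSeq (GRCm38.p6). Of the table's identifiers, 91.4% were found in GENCODE M39.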

Additional observations from a re-analysis of the deposited data

Results flagged for a closer look

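Each of the 40 combinations of a member and a group was tested by Dixon's criterion for 1 liver far from the other 4, at a critical value of 0.71. For independent, normally distributed values, chance marks about 1 in 20 such groups. Here 7 were marked. The members were measured in the same livers and are not independent, and the rate over all genes was not computed. The 7 are therefore not read as an excess over chance. In the Isotype + CORT group, replicate 3 was the highest and apart from the rest for Igtp (66.0 CPM, next 27.6 CPM), Gbp6 (9.35 CPM, next 3.85 CPM) and Irgm1 (42.7 CPM, next 36.1 CPM). Replicate 1 of that group was apart for Gbp5 (3.83 CPM, next 0.717 CPM). In the αACBP + Vehicle group, replicate 3 was the highest for Gbp2b (17.02 CPM, next 6.32 CPM) and replicate 1 the lowest for Gbp7 (8.66 CPM, next 22.6 CPM). In the Isotype + Vehicle group, replicate 4 was the highest for Gbp6 (14.96 CPM, next 6.65 CPM).

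The effect of CORT on Ifit3 differed between both antibodies by the test of the difference itself (interaction log2 value 2.24 ± 0.44, adjusted p = 0.0312, edgeR).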

How the results depend on the processing

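The direction of every member with CORT under isotype and with αACBP under CORT was kept under every alternative that gave a value, and no called value changed sign. Some members, none of them called, changed sign under at least 1 alternative in the 3 other comparisons: Gbp2b, Gbp6, Gbp7 and Gbp9 with CORT under αACBP (Gbp2b from -0.28 to as high as 0.30), Gbp2b, Gbp3, Gbp5, Gbp6, Gbp7 and Gbp9 with αACBP under vehicle (Gbp5 from -0.36 to 0.012), and Gbp6, Gbp9 and Iigp1 for αACBP + CORT against Isotype + Vehicle. The requirement of at least 10 counts in every liver left Gbp2, Gbp2b and Gbp5 out. Counts of called genes that moved by over 1.5 times follow, and for each the cause was not tested. Where no share of all genes stands beside a count below, or beside a count from a subset of livers above, it was not computed for that setting. Such a count is not read as a result by itself.

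With CORT under isotype, dropping the fold limit gave 5 members, 2 other GBP and IRG genes and 6 pathway genes, against 1.86% of all genes. Unadjusted p of at most 0.05 with the fold limit gave 2 other family genes, 4 pathway genes and 1 partner. DESeq2's Wald test gave 4 pathway genes, against 3.28% of all genes in either direction. Without a filter on low counts 3 Kupffer markers were called, and in a fit of only the groups compared 5 type I genes and 1 Kupffer marker. With αACBP under CORT, DESeq2 called 2 members, against 1.31% of all genes in either direction. The fit of only the groups compared called 0 members, 0 pathway genes, 2 type I genes and 1 Kupffer marker. Unadjusted p gave 2 members, 1 other family gene, 10 type I genes and 2 partners, and dropping the fold limit 1 other family gene. With αACBP under vehicle, unadjusted p and DESeq2 each gave 2 other family genes (DESeq2 called 1.77% of all genes). For the interaction, unadjusted p gave 5 members and 2 other family genes, and the filter of 10 counts 1 other family gene. DESeq2 gave 1 member and 2 other family genes, against 1.17% of all genes. Spearman's rho shared 3 of the 10 genes most like the members.

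With each liver left out in turn, CORT under isotype gave 2 to 4 members, 0 to 6 other family genes, 1 to 5 pathway genes, 4 to 10 type I genes, 0 to 1 partners, 0 to 5 Kupffer markers and a member median of -1.44 to -0.97. αACBP under CORT gave 0 to 4 members, 0 to 1 other family genes, 0 to 4 pathway genes, 4 to 7 type I genes, 0 to 1 partners, 1 to 3 Kupffer markers and a median of 0.66 to 1.12. For CORT under αACBP and for αACBP + CORT against Isotype + Vehicle no member and no other family gene was called, and medians were -0.16 to 0.12 and -0.35 to -0.13. αACBP under vehicle gave 0 members, 0 to 2 other family genes and a median of -0.28 to -0.06, and the interaction 0 to 2 members, 0 to 1 other family genes and a median of 0.86 to 1.42. Shares of all genes were computed only without Isotype + CORT replicate 3. There, 1.93% were called lower with CORT, 0.917% higher with αACBP under CORT and 0.231% higher for the interaction. With all livers, 1.43% were called lower with CORT and 0.504% higher with αACBP under CORT. As the share moves with the livers used, the counts above are not read by themselves.

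Livers with the same replicate number did not deviate together (30 pairs, correlations of -0.17 to 0.17, 4 of them over 0.1; 1 of 20 livers correlated best with its own number). With a replicate block, 2 members (Gbp2b and Gbp3) were called with αACBP under CORT, and 4 members and 1 other family gene with CORT under isotype. For Gbp2, Gbp2b and Gbp5, at a few CPM or less in CORT-treated livers, low counts limit the precision.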

Other observations

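Gbp2 was at 0 counts in 2 livers in which its neighbours on chromosome 3 were well measured. In replicate 3 of the Isotype + CORT group Gbp2b was at 2.19 CPM, Gbp3 at 16.02 CPM and Gbp7 at 16.8 CPM, and in replicate 5 of the αACBP + Vehicle group they were at 3.72, 38.9 and 26.5 CPM. In the other 18 livers Gbp2 was at 0.957 to 6.98 CPM. Its correlation with the members' mean z score was 0.45 over the 20 livers and -0.13 after subtraction of the group means. The other members ran from 0.58 (Iigp1) to 0.88 (Gbp3) and from 0.30 (Irgm1) to 0.77 (Gbp3). The mean z score includes the member itself, which raises each of these values.

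Gbp6 and Gbp10 are near-identical, with coding sequences the same at 95.4% of alignment columns. Both were at 0.726 CPM and 13 counts in replicate 1 of the αACBP + Vehicle group. In the other livers of that group Gbp6 was at 5.09 to 13.6 CPM and Gbp10 at 0.965 to 12.1 CPM. For Gbp6 the 0.726 CPM was below every other liver, the Isotype + CORT group included (lowest 1.64 CPM). For Gbp10 the lowest Isotype + CORT liver was lower still, at 0.709 CPM. Of all 100-base words, 53.6% for Gbp6 and 59.6% for Gbp10 also occurred in other genes, partly in each other. Whether the same read pairs were counted for both genes was not tested, so the equal counts are not read as separate measurements.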
